A study of Mus musculus with 13 samples.

Results

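The genes described here encode the pigment machinery of the mouse melanocyte and the factors that specify this cell. They are Mlana, Tyr, Tyrp1, Dct, Mitf, Kit, Sox10, Oca2 and Slc45a2, 9 of the 19938 genes with a single-gene probe set on the arrays. The set was chosen by gene name with earlier results of these data known, and each gene was read from its probe set with the highest mean. Mitf had 2 such probe sets and the other members 1 each. RNA came from whole back skin of male C57Bl6 mice aged 46 days after birth, and the labels give telogen, in which hair growth pauses, as the growth phase. Lights were on for 12 h and off for 12 h, food was standard chow, and the labels list no mutation or treatment. Skin was taken every 4 h over 48 h, and zeitgeber time (ZT) counts hours from lights on. Equal amounts of RNA from 3 mice were pooled for each collection and hybridised to 1 Affymetrix array. Collections at hours 2, 26 and 50 are the 3 ZT2 arrays, and ZT6, ZT10, ZT14, ZT18 and ZT22 have 2 arrays each, so 7 arrays are light and 6 are dark.

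Melanin is made in the melanosome, a lysosome-related organelle of the melanocyte. Tyrosinase starts the pathway, and the related enzymes made by Tyrp1 and Dct act on its later steps. In the coat of the mouse, melanocytes make pigment in the bulb of the growing hair follicle, and their stem cells persist in the resting follicle. MITF, the central transcription factor of the lineage, acts with SOX10 on the enzyme genes, and KIT is the receptor that melanocyte precursors need for survival. In whole skin KIT also marks mast cells, SOX10 also marks Schwann cells, and MITF is made by several cell types.

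The 250 bases before the annotated start of Tyr, Tyrp1 and Dct are shown because these 3 enzyme genes were all highest on the array titled ZT46. Sequences are from RefSeq on GRCm38.p6, read 5′ to 3′ on the strand of the gene. Capitals mark CATGTG or its reverse complement CACATG, the core of the M-box that MITF is known to bind.
Tyr (chr7:87493513-87493762, minus strand): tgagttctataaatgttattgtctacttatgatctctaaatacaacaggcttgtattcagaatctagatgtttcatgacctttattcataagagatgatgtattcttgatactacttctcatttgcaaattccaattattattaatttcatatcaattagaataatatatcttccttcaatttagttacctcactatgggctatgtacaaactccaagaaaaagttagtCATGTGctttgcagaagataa
Tyrp1 (chr4:80833963-80834212, plus strand): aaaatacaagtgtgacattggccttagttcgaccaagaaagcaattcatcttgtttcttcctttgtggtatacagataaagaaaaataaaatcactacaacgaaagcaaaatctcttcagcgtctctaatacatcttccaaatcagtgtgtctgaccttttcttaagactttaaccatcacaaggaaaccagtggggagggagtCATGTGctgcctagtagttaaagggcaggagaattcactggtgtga
Dct (chr14:118052247-118052496, minus strand): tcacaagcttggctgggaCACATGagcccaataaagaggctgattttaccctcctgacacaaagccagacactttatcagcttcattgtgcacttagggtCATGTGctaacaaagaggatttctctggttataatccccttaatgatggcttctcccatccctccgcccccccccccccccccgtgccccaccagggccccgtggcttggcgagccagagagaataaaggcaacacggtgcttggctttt
Counted back from the start, the CATGTG match begins at -21 in Tyr, at -46 in Tyrp1 and at -150 in Dct, and CACATG begins at -232 in Dct.

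Of the 9 members, 6 had a promoter window, and the others were Mlana, Sox10 and Slc45a2. These 6 genes held 9 windows, since Mitf and Kit have several starts. CATGTG on either strand was found in 4 of the 9 windows, 1 each of Tyr, Tyrp1, Dct and Oca2, and in 12.3% of all 32851 windows of 250 bases. The longer TCATGTG, which contains it, was found in 3 of the 9 (Tyr, Tyrp1 and Dct) and in 3.25% of windows. CACGTG, the E-box that BMAL1 and CLOCK are known to bind, was in 0 of the 9 and in 6.02% of windows. ACAAAG, a SOX core, was in 3 of the 9 (Tyrp1, Oca2 and Dct) and in 16.5% of windows. Each is a match of letters, and a window without one says nothing of the factor.

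Values are linear intensities as deposited. Unless stated otherwise, differences and folds are on the scale of log2(intensity + 16), which understates changes of dim genes. In bulk skin, fewer cells of a type and less RNA per cell cannot be told apart. The 95th percentile of 1194 olfactory and vomeronasal receptor genes, which skin should not make, served as a floor on each array. Mitf, Kit, Sox10 and Dct were above it on 13 of 13 arrays, Mlana and Oca2 on 12, Tyrp1 on 10, and Tyr and Slc45a2 on 0. The filter on dim genes, which left out the lowest 25% of means and kept 14953 genes, removed Tyr and Slc45a2, so 7 members were tested. Slc45a2 lay just under it, at the 24.7th percentile of mean level, and Tyr at the 9.14th.

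The ZT46 array and the first ZT2 array stood apart. ZT46, the second ZT22 collection, had a mean correlation of 0.939 with the other arrays, the lowest of the 13. The summed intensity of 44 keratin associated protein genes, structural proteins of the hair shaft, was 204800 there and 17280 to 30200 on the other 12 arrays. That of 10 hair shaft keratins was 28030 against 2868 to 4498. The first ZT2 array was the lowest of the 13 in 26.8% of genes tested and in 33.9% of all genes. Among the members it was the lowest in 4 of 9, Tyr, Kit, Oca2 and Slc45a2. Keratinocyte markers summed to between 64190 and 70360 on the 12 arrays other than ZT46, and those of 6 dermal fibroblast genes to between 60930 and 69970 on the 12 arrays other than the first ZT2 array. On that array, where those 4 members were lowest, the fibroblast sum was 48190, and its part in their low values was not tested.

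**Figure D1:**
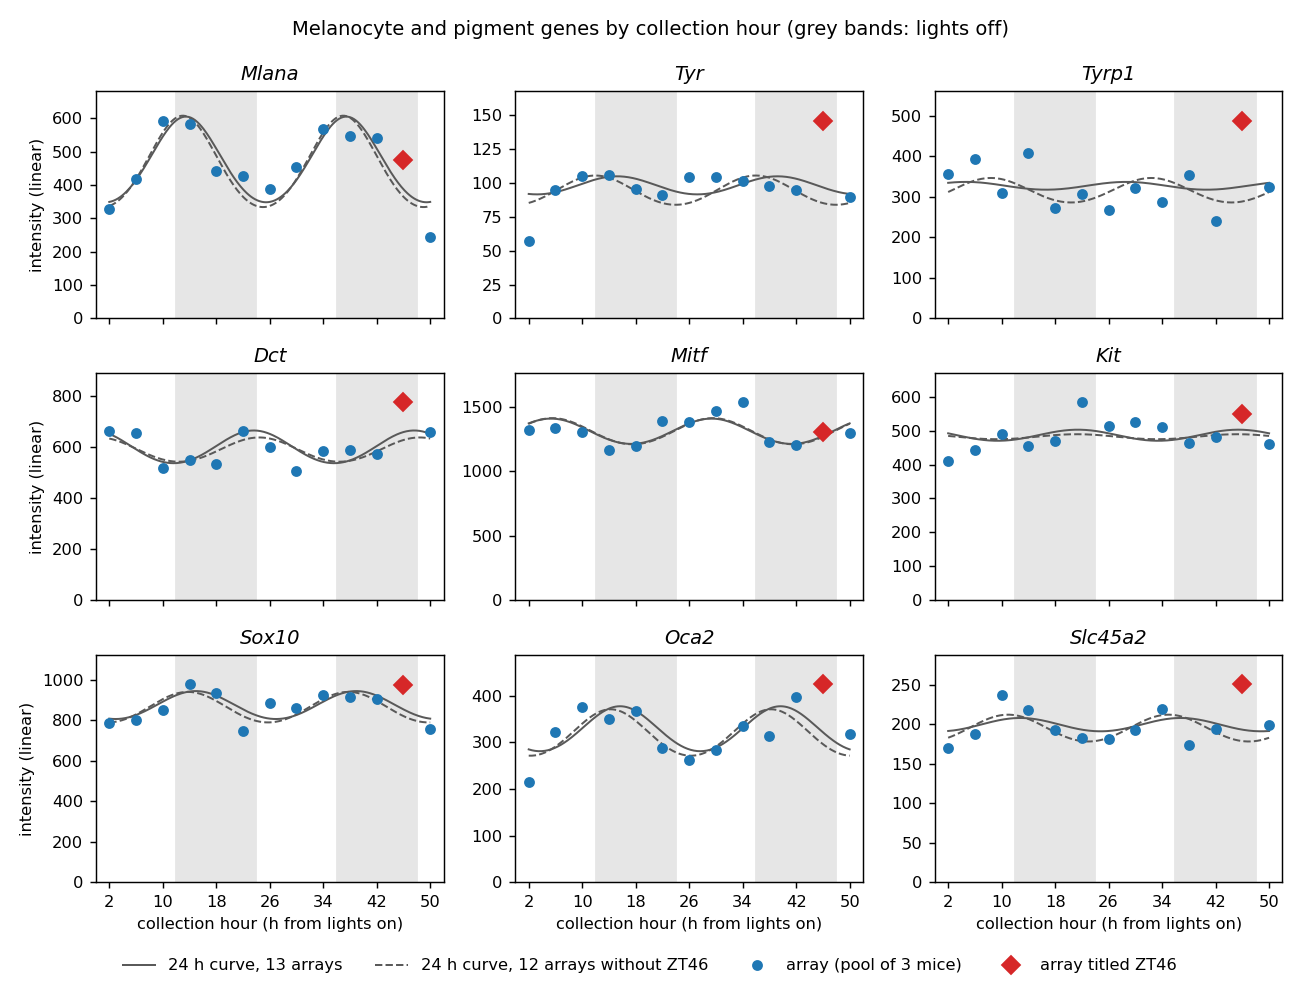
Linear intensity (y axis, from 0) of each gene against the hour of collection (x axis), with 1 point per array of 3 pooled mice, the ZT46 array as a red diamond and lights off in grey. Curves are the 24 h fits with and without ZT46. Mlana is low at ZT2 and high at ZT10 and ZT14 on both days, and Tyr, Tyrp1, Dct, Oca2 and Slc45a2 have their highest point at ZT46.

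The first comparison asks for which of these genes a 24 h rhythm was called in resting skin. Of the 7 tested, 1 was called, close to the threshold, and a gene not called may still have a rhythm. Mlana, which encodes a small membrane protein of the early melanosome, was highest around lights off and lowest early in the light phase. Its intensity was 329, 386 and 245 on the 3 ZT2 arrays, 417 and 453 at ZT6, and 593 and 568.3 at ZT10. It was 584 and 545 at ZT14, 441 and 542 at ZT18, and 427 and 474 at ZT22. All ZT10 and ZT14 arrays lay above all ZT2 arrays, as they did in 8.66% of genes tested, and 8.71% had the reverse order. By mean the order was ZT10, ZT14, ZT18, ZT22, ZT6 and ZT2. Neighbours in it overlapped, apart from ZT14 over ZT18 and ZT6 over ZT2, where the ranges did not meet.

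The fitted peak-to-trough difference of Mlana was 0.77 ± 0.15 in log2 (SE, n = 13 arrays), a 1.71-fold change, with its peak at 13.5 ± 0.79 h (SE). Its adjusted p was 0.0364 (limma F test, Benjamini-Hochberg over all genes tested), and 2.13% of the genes tested passed. Without ZT46 the difference was 0.83 ± 0.14 (SE, n = 12 arrays), the peak 13 h and the adjusted p 0.0195 (limma), and 2.63% of genes passed. The level at ZT46, 474, was sixth highest of 13, so Mlana did not share the high value of the enzyme genes there. The call was close to the threshold: leaving out 1 array at a time ended it for 9 of 13 arrays, with adjusted p-values from 0.0195 to 0.104 and a peak between 13 and 13.8 h. Those 9 were both ZT6, ZT10 and ZT14 arrays, the first and second ZT2 arrays and the second ZT18 array. On the last ZT2 array Mlana lay below the receptor floor, at 245 against 283. Without that array the difference was 0.61 and the call stayed.

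The other 6 members tested did not pass, and their fitted differences lay between 0.08 and 0.41 in log2, where the median of all genes tested was 0.19. Dct, whose product converts dopachrome, had an unadjusted p of 0.0422 and an adjusted p of 0.258 (limma). Its difference was 0.30 ± 0.11 (SE, n = 13 arrays) with a fitted peak at 23.6 h, and 0.23 ± 0.10 (SE, n = 12 arrays) without ZT46. With Mlana, that made 2 of 7 at an unadjusted p under 0.05, where 18.6% of genes tested had one. Without ZT46, Oca2 and Sox10 were under 0.05 beside Mlana (unadjusted p 0.0160 and 0.0230, limma) and Dct was not (0.101). Of genes tested, 24.6% were. Oca2, a melanosomal membrane protein whose loss reduces pigment, had a fitted peak-to-trough of 0.41 ± 0.15 (adjusted p 0.283, limma). Without ZT46 Oca2 had 0.43 ± 0.13 and Sox10 0.25 ± 0.08, with adjusted p-values of 0.135 and 0.154 (limma). Tyrp1 had 0.08 ± 0.20 with all arrays and 0.26 ± 0.17 without ZT46, the widest error of the set.

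From lowest to highest of the 13 arrays, in linear intensity without the offset, Sox10 ranged 1.30-fold, Mitf 1.32-fold and Kit 1.42-fold. Slc45a2 at 1.47-fold and Dct at 1.52-fold were close to these, and Oca2 (1.97), Tyrp1 (2.03), Mlana (2.42) and Tyr (2.55) ranged more widely. Tyr and Slc45a2 were below the receptor floor on every array. The lowest values of Oca2, Tyrp1 and Mlana also lay below it, so these wider ranges reach into background. The fitted difference was 0.21 ± 0.08 for Mitf with a peak at 5.33 h and 0.22 ± 0.09 for Sox10 with a peak at 14.9 h (SE, n = 13 arrays). Their adjusted p-values were 0.288 and 0.292 (limma). For Kit it was 0.09 ± 0.11, with an adjusted p of 0.815 (limma). Fitted without the filter, Tyr had 0.17 ± 0.18 and Slc45a2, a melanosomal transporter, had 0.11 ± 0.12, with adjusted p-values of 0.763 and 0.771 (limma). Without ZT46 these became 0.28 ± 0.14 and 0.23 ± 0.10 (SE, n = 12 arrays), with adjusted p-values of 0.344 and 0.281 (limma).

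**Figure D2:**
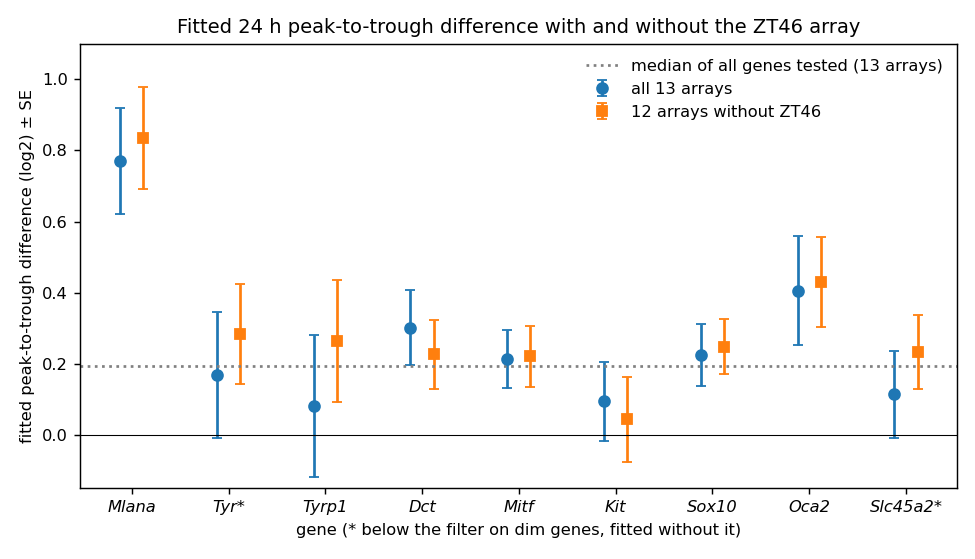
Fitted 24 h peak-to-trough difference in log2 (y axis) with its SE for each gene, over all 13 arrays (circles) and over 12 arrays without ZT46 (squares). The dotted line is the median of all genes tested, 0.19, and Mlana lies at 0.77 and 0.83.

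By time of day, the spread within a time was as wide as most steps between times. Tyrp1 was lowest at ZT18, at 273 and 240, and the next time in its order, ZT10, did not overlap it, at 309 and 288. The values 273, 240 and 288 lay below the receptor floor of their arrays, at 305, 331 and 306. Mitf was lowest at ZT14 and ZT18, at 1197 ± 48.9 and 1201 ± 2.24 (SD, n = 2 arrays each), and the ZT2 arrays, at 1332 ± 45.6 (SD, n = 3 arrays), lay above both ZT18 arrays. Kit was highest at ZT22, at 583 and 550, above both ZT10 arrays at 489 and 512. Dct was highest at ZT22, at 663 and 774, above the ZT2 arrays, the highest of which read 661.5. For Tyr, Sox10, Oca2 and Slc45a2, neighbours in the order overlapped at every step.

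The second comparison sets dark against light. No member passed, with 0 of 7 called by limma, and 0.0201% of genes called. At an unadjusted p under 0.05 there was 1 of 7, beside 8.28% of genes (5.08% without ZT46). It was Mitf, with 1162, 1217 and 1392 as the lowest, median and highest of 6 dark arrays and 1294, 1334 and 1534 in 7 light arrays. The groups overlapped. Dark minus light came to -0.14 ± 0.06 in log2 (SE over 13 arrays; limma, unadjusted p 0.0330, adjusted 0.561), and to -0.15 ± 0.06 without ZT46. Mlana was 427, 508 and 584 in the dark and 245, 417 and 593 in the light, again as lowest, median and highest. Its dark minus light value was 0.27 ± 0.17 (adjusted p 0.689, limma), and its highest time of day, ZT10, lies in the light. Among the other tested members the difference ran from 0.03 for Dct to 0.24 for Oca2, and the signs of Tyrp1 and Dct turned without ZT46, to -0.04 each.

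The third comparison sets the second day against the first at the same hours. No member and no gene passed limma (0 of 14953). Without adjustment, 976 genes (6.53%) and 0 of 7 members had a p under 0.05. Differences of the tested members ran from -0.08 ± 0.12 for Tyrp1 to 0.10 ± 0.07 for Sox10, with 0.10 ± 0.07 for Mlana (SE, n = 12 arrays). For Tyrp1 the difference was -0.23 ± 0.06 without ZT46, where limma gave an unadjusted p of 0.0053, under the 0.05 that 5.48% of genes met, and an adjusted p of 0.794. No member or gene passed limma's test of a change in the 24 h curve between days (0 of 14953). Unadjusted, 12.8% of genes and 0 of 7 members were under 0.05, and 7.35% of genes without ZT46. For Mlana the adjusted p of that difference was 0.579 (limma).

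The array titled ZT46 was then set beside the first ZT22 array, the same time of day on the day before. With 1 array each there is no test. The melanin enzymes and melanosomal transporters were higher at ZT46 and the regulators were mixed. Tyr, the tyrosinase gene, read 146 at ZT46 and 91.3 at ZT22, and 57.3 to 106 on the 12 arrays other than ZT46. Tyrp1 read 488 against 307, with 240 to 409 on the other 12. The difference of Tyrp1, 0.64 in log2(intensity + 16), exceeded 1.5-fold, as 2.59% of genes tested did, and 4.65% did in the lower direction. Tyr differed by 0.60, but it was below the receptor floor on both arrays and is not among the genes tested, so its fold is not one measured above background.

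Oca2 read 425 against 287 at ZT22, and 216 to 397 on the other 12 arrays. Slc45a2 read 250 against 183, and 170 to 237 on the other 12. Dct read 774 against 663, and 508 to 663 on the other 12. For these 5 genes ZT46 was the highest of the 13 arrays, as it was for 8.62% of genes tested and 13.3% of all genes. The members were chosen with earlier results of these data known, so the count is a description. Sox10, at 975 and 749, was second highest at ZT46, and became the highest after quantile normalization or with equal medians. Then 6 of 9 members were highest there, beside 12.3% or 12.8% of genes tested and 13.8% or 18.7% of all genes. Mitf, at 1308 and 1392, and Kit, at 550 and 583, had differences of -0.09 and -0.08. On the 12 arrays other than ZT46, Sox10 read 749 to 977, Mitf 1162 to 1534 and Kit 409 to 583. The ZT22 value was thus the lowest of the 13 arrays for Sox10 and the highest for Kit, which was second highest at ZT46. The sign for Mitf turned to 0.02 after quantile normalization. The median difference was 0.37 over the 9 members, which is the value of Sox10, and -0.04 over all genes tested.

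Beside these values, the dim end of the arrays also differed. The median receptor gene read 109 at ZT46 and 82.4 at ZT22, and its range over the 13 arrays was 70.5 to 117. Tyr and Slc45a2 lay below the receptor floor on both arrays. After quantile normalization the difference between ZT46 and ZT22 was 0.35 for Tyr, 0.23 for Slc45a2, 0.48 for Oca2, 0.60 for Tyrp1 and 0.31 for Dct, so Tyrp1 and Oca2 moved least from 0.64 and 0.54. The part of the dim end or of the hair transcripts in these differences was not tested.

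**Figure D3:**
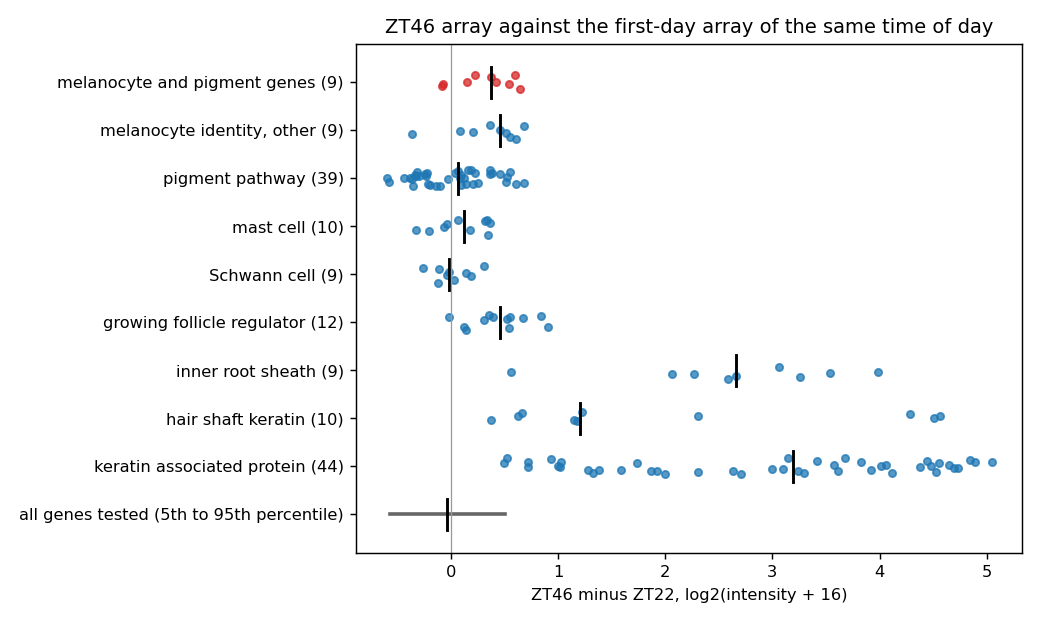
Difference between the ZT46 and the ZT22 array in log2(intensity + 16) (x axis) for each gene of 9 lists (number of genes in brackets), with the list median as a bar, and the 5th to 95th percentile and median of all genes tested at the bottom. The 9 melanocyte and pigment genes lie between -0.09 and 0.64, and the keratin associated proteins between 0.49 and 5.05.

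Other lists of the follicle and its neighbours gave context. All 44 keratin associated protein genes were highest at ZT46, with a median difference from ZT22 of 3.20, as were all 10 hair shaft keratins (1.20) and all 9 inner root sheath genes (2.66). Of 12 regulators of the growing follicle, 8 were highest there, with a median of 0.45. Mast cell markers, which share KIT, had a median of 0.12, with summed intensities of 8942 at ZT22 and 9757 at ZT46. Schwann cell markers, which share SOX10, had a median of -0.02, with sums of 19340 and 18470, over the 9 genes measured. Skeletal muscle markers summed to 41060 at ZT46, below the 46510 to 59580 of the other 12 arrays, and all 5 were lower there than at ZT22, with a median of -0.30. The part of muscle in the ZT46 differences was not tested. Of 9 further melanocyte genes, 4 were highest at ZT46, and the median difference was 0.46. Genes of this list are named after their values were seen. Pmel, the fibril protein of the melanosome, read 348 against 223, and Slc24a5, a melanosomal ion exchanger, 393 against 240. Trpm1 read 171 against 129.5, and Tspan10 259 against 172. The receptor floor was 353 at ZT46 and 244 at ZT22. Pmel, Trpm1 and Tspan10 lay below it on both arrays and Slc24a5 at ZT22, so their folds are not ones measured above background. The 240 of Slc24a5 was also its lowest value on the 12 arrays other than ZT46. Ednrb, the endothelin receptor of melanocyte precursors, went the other way at 1057 against 1363, with 836 to 1365 on the 12 arrays other than ZT46. Pax3, a transcription factor of the lineage, differed by 0.08. Mc1r read 749 against 522, with 386 to 757 on the 12 arrays other than ZT46. Gpnmb read 3733 against 3235, with 2281 to 4220 there. These 2 genes were above the floor on both arrays and not highest at ZT46. Gpr143 read 238 against 168.5, below the floor on both.

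A wider list of 39 genes of pigment synthesis, melanosome biogenesis and transport and melanocyte signalling was chosen with earlier results known, and 35 passed the filter. None was called for a 24 h rhythm by limma, 4 of 35 had an unadjusted p under 0.05 beside 18.6% of all genes, and the median fitted difference was 0.14 beside 0.19. None was called for dark against light, the second against the first day or a change of the curve between days. At an unadjusted p under 0.05 these had 0, 2 and 5 of 35, beside 8.28%, 6.53% and 12.8% of all genes. At ZT46 the 39 genes had a median difference from ZT22 of 0.07, from -0.60 to 0.68, and 8 of 39 were highest there, beside 13.3% of all genes. The 39 include all 9 further melanocyte genes, and the 4 of those highest at ZT46 are among the 8. The 6 genes of the wider list with the smallest p for a rhythm were Irf4, Gpr143, Hps6, Mlph, Pomc and Bloc1s3. Irf4, a transcription factor of immune cells and melanocytes, had the widest fit, 0.50 ± 0.13 (SE, n = 13 arrays) with a fitted peak at 12.2 h and an adjusted p of 0.126 (limma).

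Irf4 read 672 and 832 at ZT10, its top values, and 429, 530 and 414 at ZT2. Gpr143, a receptor of the melanosome membrane, had 0.38 ± 0.11 with a fitted peak at 12.6 h. Hps6, a subunit of the BLOC-2 complex that delivers cargo to melanosomes, had 0.27 ± 0.08 with a fitted peak at 13.8 h. Without ZT46, Hps6 was called, at 0.33 ± 0.07 (SE, n = 12 arrays), a peak at 12.7 h and an adjusted p of 0.0422 (limma), 1 of 35 where 2.63% of genes were called. Over 21 alternatives the difference of Hps6 lay between 0.13 and 0.33, with adjusted p-values from 0.0422 to 0.685 (limma). Mlph, which links melanosomes to their motor, had 0.29 ± 0.10 and a fitted peak at 13.7 h. Pomc, the precursor of the melanocortin peptides, had 0.37 ± 0.14 with a fitted peak at 13.8 h, and Bloc1s3, a subunit of BLOC-1, had 0.20 ± 0.08 with one at 0.82 h. All of these peaks are fitted times of genes that did not pass with all arrays. Gpr143, Hps6 and Pomc lay below the receptor floor on every array, so their fits are not of signal above background.

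Several of the pigment genes moved with the dim end of the arrays. Over the 13 arrays the level of Oca2 correlated with the median of the receptor genes at r = 0.871 and rho = 0.863, with adjusted p-values of 0.0009 and 0.0013 (two-sided permutation test, 100000 permutations, 9 genes tested). For Slc45a2 r was 0.794 and rho 0.874, with adjusted permutation p-values of 0.0045 and 0.0013. Sox10, which was above the floor on every array, had r = 0.694 and rho = 0.709, with adjusted permutation p-values of 0.0173 and 0.025. Without the 2 arrays farthest from the middle, hours 2 and 14, r was 0.884 for Oca2, 0.812 for Slc45a2 and 0.594 for Sox10.

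For Mlana r was 0.569 and rho 0.654, with adjusted permutation p-values of 0.0807 and 0.0412, and r was 0.373 without those 2 arrays, which narrows the range of the receptor median. For Tyr r was 0.741 (adjusted permutation p 0.0173) and rho 0.571 (0.0809), and r was 0.551 without them. Mitf, Dct, Kit and Tyrp1 had r between -0.310 and 0.211 and adjusted permutation p-values of r of at least 0.455. Without ZT46, r was -0.612 for Dct, from -0.236, and -0.0755 for Tyrp1, from 0.152. The arrays of 1 time of day share a phase, which these permutations do not keep, and the labels name no batch. With the receptor median as a covariate, an alternative chosen after the data were seen, Mlana had a difference of 0.69, a peak at 13.4 h and an adjusted p of 0.174 (limma). The share of the dim end in its rhythm was not tested otherwise.

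**Figure D4:**
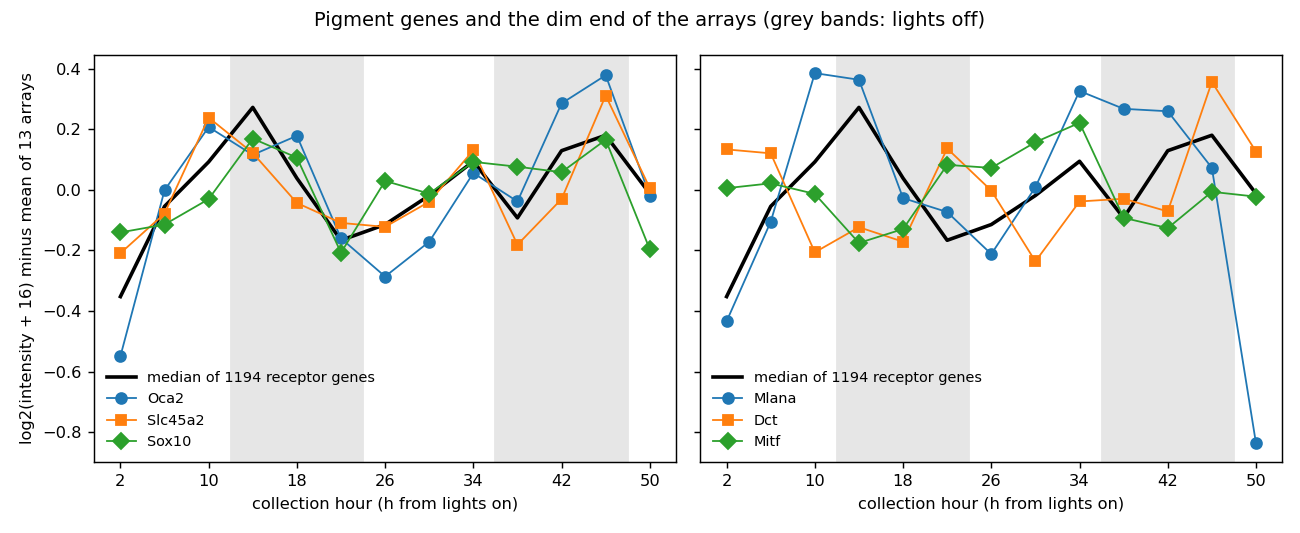
Log2(intensity + 16) minus its mean over 13 arrays (y axis) against the hour of collection (x axis), with the median of 1194 receptor genes as a thick line and lights off in grey. Oca2, Slc45a2 and Sox10 (left) follow that line at r = 0.871, 0.794 and 0.694, and Mlana, Dct and Mitf (right) at 0.569, -0.236 and -0.310.

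For each member the 3 other genes with the most similar profile were taken by Pearson correlation over the 13 arrays, as a description with no p, since they were chosen for it. Those of Mlana were the clock gene Per2 (r = 0.901), Ccdc138 (0.896) and Nnat (0.894), and over 12 arrays without ZT46 they had 0.905, 0.912 and 0.895. Those of Oca2 were Col27a1 (0.984), Lypd9 and Hmx2 (0.981 each). Those of Mitf were Milr1 (0.898), Mef2a (0.883) and Trdmt1 (0.879), and those of Kit were Cxcr6 (0.916), Ptprc (0.901) and Neil3 (0.893). The top values were lower for Tyrp1, with 0.764 for Klc4 (0.641 without ZT46), and for Dct, with 0.728 for Skp2 (0.542) and 0.722 for Tmem81 (0.755). Those of Tyr led with 1500035N22Rik (0.939), those of Sox10 with 9430015G10Rik (0.932) and those of Slc45a2 with Gm5124 (0.928).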

How the data were processed

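Probe set intensities on a linear scale were deposited for 13 arrays. The submitters' processing notes list PLIER 2.0 and Affymetrix Expression Console 1.1.1. How arrays were normalized to each other, and on which build, is not given in the sources used here. Column medians lay between 353.8 and 392.8, and no pair of arrays held identical values. Per the labels, each array is a separate pool of mice, so errors include how pools differ. In dark minus light they also include changes among the times of day within a phase. In the 24 h fit they also include departures from the fitted curve. The number of arrays limits the precision.

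The platform annotation gave a single gene for 21789 of 35557 probe sets, more than 1 for 1621 and none for 12147. Gene identifiers of 21698 matched the RefSeq table (GRCm38.p6), which updated symbols. The probe set with the highest mean stood for each gene, an offset of 16 was added before log2, and the dimmest 25% of genes were left out.

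Tests used R 4.3.3 and limma 3.58.1 (lmFit and eBayes) over all 14953 genes with Benjamini-Hochberg adjustment and a threshold of 0.05: a 24 h cosine and sine pair, dark minus light, second minus first day with time of day as a block, and the pair by day. The code was tested on simulated data. Alternatives covered the offset, filter, normalization, probe set, collection day as a block, the receptor median (added later) and each array left out. Named genes are the 9 members, the 6 pathway genes with the smallest rhythm p, any called gene of that list, and the 3 most similar genes of each member. The 9 further melanocyte genes are also named, after their values were seen. The members and lists were chosen with earlier results of these data known.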

Additional observations from a re-analysis of the deposited data

Results flagged for a closer look

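In groups of 4 to 10 arrays, values far from the rest by Dixon's criterion were sought among 30 groups, the 6 dark and the 7 light arrays of each of 15 named genes. Chance alone flags about 1 in 20 such groups. Tyr was highest among the dark arrays at ZT46, where it read 146 and the next array 106, a gap of 0.74 of the range. Tyr was also lowest among the light arrays on the first ZT2 array, at 57.3 with the next at 89.6, a gap of 0.678. Sox10 was lowest among the dark arrays on the first ZT22 array, at 749 with the next at 904, a gap of 0.678. Gpr143 was lowest on the same array, at 168.5 with the next at 236, a gap of 0.638. Irf4 was lowest among the dark arrays at ZT46, at 495 with the next at 572, a gap of 0.735.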

How the results depend on the processing

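Of the members, 1 (Mlana) was called for a 24 h rhythm, and 0 were called without the filter on dim genes (adjusted p of Mlana 0.0504), with the dimmest 50% left out, which drops Mlana, or with the receptor median as a covariate. Leaving out 1 array gave 0 to 1. The call of Mlana was lost in 11 of 21 alternatives, and its peak-to-trough difference lay between 0.61 and 0.83 in all of them. Over all genes, the rhythm count of 318 was 165 with the receptor covariate and 128 to 422 with 1 array left out. Dark minus light had 3 genes, 1 with the dimmest 50% left out, and 1 to 26 with 1 array left out. For the pigment pathway list, leaving out 1 array gave 0 to 1 rhythm calls. No member was called for dark minus light or for either day test in any alternative.

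Signs or fitted phases turned only where no test had passed, and the cause was not tested. For Mitf the second minus first day was -0.015 with the mean of its probe sets. With quantile normalization and with the receptor covariate, the peak-to-trough difference was 0.076 and 0.18 for Tyr and 0.064 and 0.14 for Slc45a2, at another phase. For Slc45a2, dark minus light was -0.028 and -0.074, and second minus first day -0.0141 and -0.0282. With 1 array left out, the peak-to-trough difference ranged from 0.0325 to 0.263 for Tyrp1 and from 0.0587 to 0.282 for Tyr. Dark minus light ranged from -0.0396 to 0.155 for Tyrp1, -0.0373 to 0.0683 for Dct and -0.0377 to 0.0638 for Slc45a2. Second minus first day ranged from -0.0260 to 0.0893 for Dct, -0.0212 to 0.121 for Oca2 and -0.0547 to 0.090 for Slc45a2. The labels give no replicate numbers, so no paired analysis was possible apart from pairing by hour. The day comparison matches collections of the same time of day. With collection day as a block Mlana stayed called (0.61, adjusted p 0.0347, limma). In that fit the last ZT2 array is alone on its day, so its day term takes it up and it adds nothing to the curve. The difference was also 0.61 with that array left out, so the block is not a separate check. Signal over background limits Tyr and Slc45a2, which were not above the receptor floor on any array. The same holds for Gpr143, Hps6 and Pomc of the wider list.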
